A study of Mus musculus with 16 samples.

Results

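The 9 genes described here make, store and break down serotonin and the catecholamines. They were chosen by symbol from the 24063 genes listed in both expression tables of the study: Tph1, Tph2, Ddc, Th, Gch1, Slc18a1, Slc18a2, Maoa and Maob. RNA came from AtT-20, a mouse corticotrope tumour line that makes pro-opiomelanocortin, and the design sets cells with Pax7, the transcription factor that directs pituitary cells to the melanotrope fate, against cells without it or with it inactive. Untreated cells expressing 3x flag-Neo (Neo, 2 libraries) stood against untreated cells expressing 3x flag-Pax7 (Pax7, 2 libraries). Cells expressing 3x flag-ER-Pax7, a fusion protein that becomes active with 4-hydroxytamoxifen, gave 3 libraries without treatment (0 h) and 3 each after 12, 24 and 96 h of that compound, for 16 libraries in all. All cells were AtT-20 grown in serum-containing medium, and the labels do not say whether a line is 1 clone or whether replicates came from separate cultures. The spread behind every p-value is therefore that between libraries, and it may be technical. Every group of the time course carries the fusion, and no cells without it were given the compound, so effects of Pax7 activity, of the compound and of time in culture cannot be told apart. With 1 population of each kind, the presence of Pax7 and any other difference between Neo and Pax7 cells also cannot be told apart.

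Serotonin is made from tryptophan by a tryptophan hydroxylase, encoded by Tph1 in peripheral and endocrine cells and by Tph2 in neurons, followed by the aromatic amino acid decarboxylase Ddc. Catecholamines are made from tyrosine by tyrosine hydroxylase, Th, followed by the same decarboxylase, and the hydroxylases need the cofactor tetrahydrobiopterin, whose first synthetic enzyme is encoded by Gch1. The vesicular transporters Slc18a1 (endocrine cells) and Slc18a2 (mainly neurons) load monoamines into granules, and the monoamine oxidases Maoa and Maob degrade them. In the pituitary, dopamine from the hypothalamus restrains melanotropes through the receptor Drd2.

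Tph1 drew attention to these genes through its lower values in the treated ER-Pax7 libraries, so its values there are a description with no test. The other members were included for what they do, and Neo and Pax7 libraries were tested for every member that passed the filter on low values. The ER-Pax7 values are scaled exon reads, reads over the exons of a gene scaled to a common library total, and the Neo and Pax7 values are FPKM over the whole gene body with introns. Levels therefore cannot be compared between the tables. The ER-Pax7 libraries held 61.3 to 88.8 M recovered reads (M, mega). In 12 h replicate 2 the ribosomal transcript Rn45s took 2.34% of the reads, against 0.753% to 1.26% in the other 11 ER-Pax7 libraries.

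The promoters of the 4 members with the largest differences in either table are shown because Tph1, Ddc and Gch1 were lower, and Th higher, in the libraries described next. The promoter table used, from RefSeq (GRCm38.p6), matched 7 of the 9 members. Each sequence is the 250 bases before a RefSeq start, all 4 on the minus strand and written 5′ to 3′. The windows are chr7:46667378-46667627 for Tph1, chr11:11890409-11890658 for Ddc, chr14:47189414-47189663 for Gch1 and chr7:142899996-142900245 for Th. Capitals mark a match on either strand, so that the reverse complement may be what stands there, to the CCAAT box, to the TATA box (letters TATAAA) or to the cAMP response element (letters TGACGTCA). No matches of these motifs overlap in the windows shown.
Tph1: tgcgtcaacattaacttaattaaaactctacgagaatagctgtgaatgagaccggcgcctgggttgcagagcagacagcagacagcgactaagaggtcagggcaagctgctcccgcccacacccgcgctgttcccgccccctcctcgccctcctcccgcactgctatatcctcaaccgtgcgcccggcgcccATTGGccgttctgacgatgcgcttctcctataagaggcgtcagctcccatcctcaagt
Ddc: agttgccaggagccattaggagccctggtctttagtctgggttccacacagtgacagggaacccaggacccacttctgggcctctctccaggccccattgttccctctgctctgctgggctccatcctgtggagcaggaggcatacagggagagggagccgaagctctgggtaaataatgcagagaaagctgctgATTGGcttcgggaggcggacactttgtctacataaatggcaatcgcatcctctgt
Gch1: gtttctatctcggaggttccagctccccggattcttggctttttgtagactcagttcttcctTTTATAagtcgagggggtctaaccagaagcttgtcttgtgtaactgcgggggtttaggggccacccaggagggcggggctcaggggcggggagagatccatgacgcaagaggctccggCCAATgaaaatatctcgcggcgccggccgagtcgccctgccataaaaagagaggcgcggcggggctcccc
Th: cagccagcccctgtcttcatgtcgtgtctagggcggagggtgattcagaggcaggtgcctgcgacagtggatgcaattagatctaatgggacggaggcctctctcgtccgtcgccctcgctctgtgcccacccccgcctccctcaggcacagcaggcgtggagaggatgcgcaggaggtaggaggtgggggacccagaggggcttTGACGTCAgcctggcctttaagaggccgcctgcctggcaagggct
The Tph1, Ddc and Gch1 windows each held 1 CCAAT match, at −58, −55 and −70 from the RefSeq start, and 33.8% of 32817 windows of this length hold one. The Gch1 window also held a TATAAA match at −188, a motif found in 12.4% of windows. Tph1 and Ddc each have a further RefSeq start, 5160 and 7736 bases upstream of the start used for counting. The windows before those further starts, not shown, held no CCAAT match, and that of Ddc held a TATAAA match at −68. The TGACGTCA match of the Th window, at −45, is of a motif found in 1.55% of windows. The homeodomain dimer motif, TAAT facing its reverse complement across 2 bases, is found in 0.384% of windows and in 0 of the members' windows. The Gch1 and Th starts in RefSeq lie 11 and 29 bases from the starts used for counting. These matches are letters in a window and were not tested for binding.

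Tph1 was lower at every time after the compound was given than before it. The gene (NM_001136084, mm10 chromosome 7, 46644641 to 46667377) had 37.96, 41.22 and 40.66 scaled exon reads in the 3 libraries at 0 h, 13.69, 15.19 and 12.50 at 12 h, 8.44, 11.04 and 11.13 at 24 h, and 13.31, 12.20 and 11.27 at 96 h. Every library of the compound lay below every 0 h library, with 37.96 as the lowest value at 0 h and 15.19 as the highest later one. The means in order of time were 39.95 ± 1.74, 13.79 ± 1.35, 10.2 ± 1.53 and 12.26 ± 1.02 (SD, n = 3 each), so the mean at 12, 24 and 96 h was 34.5%, 25.5% and 30.7% of that at 0 h. The counting depth behind these values was 323 to 500 reads per library at 0 h and 73 to 147 reads per library later. On the scale of log2(value + 1), which understates the change of low genes, the differences from 0 h were −1.47, −1.89 and −1.63. The 3 times share the 0 h libraries, so these are not independent of each other.

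Tph1 was also lower in the libraries of cells with constitutive Pax7. The Neo libraries had 0.20 and 0.16 FPKM of Tph1 and the Pax7 libraries 0.04 and 0.03, with no overlap. The mean in Pax7 cells was 19.4% of that in Neo cells, and rounding of the deposited values to 2 decimals allows a Neo to Pax7 ratio of 4.38 to 6.17. The difference was −1.08 on log2(FPKM + 0.1) (SE 0.10; limma, adjusted p = 0.00603). Tph1 passed the filter of 0.1 FPKM in 2 libraries only through the Neo group, so it had to differ if it was tested at all, and this test is no independent support. With no filter on low values the log2 difference was also −1.08 (limma, adjusted p = 0.0116). Because these are bulk RNA libraries, fewer cells with the transcript and less transcript per cell cannot be told apart.

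Tph2, the neuronal tryptophan hydroxylase (NM_173391, mm10 chromosome 10, 115078641 to 115185022), was low in the ER-Pax7 cells, at 33 to 61 reads per library. It had 3.88, 5.59 and 4.96 scaled exon reads at 0 h, 4.22, 6.10 and 6.14 at 12 h, 4.74, 4.72 and 4.72 at 24 h, and 4.60, 4.67 and 3.67 at 96 h. All 3 later groups overlapped the 0 h group. The log2 differences from 0 h were 0.15, −0.02 and −0.13 (SE 0.18 each; limma, adjusted p = 0.768, 0.955 and 0.624). The 95% interval at 96 h was −0.50 to 0.25. Tph2 was listed at 0, 0.01, 0 and 0 FPKM in the 2 Neo and 2 Pax7 libraries and was not tested there.

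**Figure D1:**
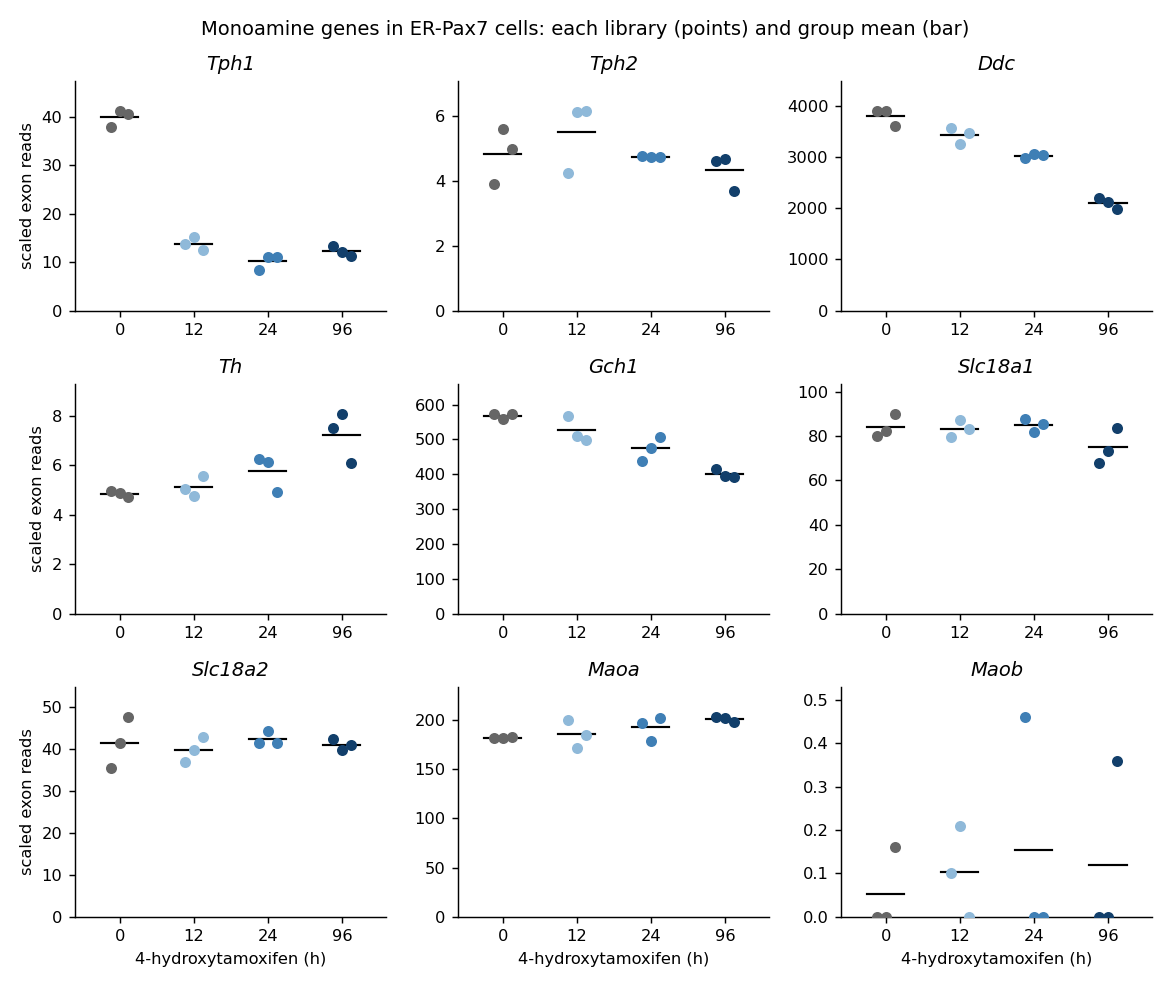
Deposited scaled exon reads (vertical axes, each from 0) of the 9 genes by hours of 4-hydroxytamoxifen, with 1 point per library and a bar at the mean of 3. Tph1 is lower from 12 h on, with a mean of 39.95 at 0 h and 13.79 at 12 h, while Ddc and Gch1 decline over all 4 times and Th is highest at 96 h.

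Ddc declined over the whole time course and remained the most abundant of the 9 transcripts. Ddc, the decarboxylase shared by both pathways (NM_016672, mm10 chromosome 11, 11814101 to 11890408), had 3902.95, 3906.21 and 3605.08 scaled exon reads at 0 h and 3570.71, 3264.95 and 3484.90 at 12 h. At 24 h it had 2989.25, 3060.85 and 3054.47, and at 96 h 2199.62, 2131.10 and 1986.14. The 4 groups did not overlap, and each later group lay below the one before it. The means were 3805 ± 173, 3440 ± 158, 3035 ± 39.6 and 2106 ± 109 (SD, n = 3 each), so the 96 h mean was 55.3% of that at 0 h.

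The fall of Ddc was −0.34 on the log2 scale at 24 h and −0.86 at 96 h (SE 0.04 each; limma, adjusted p = 5.71e-06 and 1.93e-12). Between 24 and 96 h it fell by a further 0.52 (SE 0.04; limma, adjusted p = 4.44e-08). At 12 h the difference of −0.15 was called (limma, adjusted p = 0.0349), but not without 0 h replicate 1, 0 h replicate 2, 12 h replicate 2 or 12 h replicate 3 (limma, adjusted p = 0.121, 0.149, 0.139 and 0.0668). That call was also lost with no filter on low values and with limma without a trend (adjusted p = 0.0934 and 0.142). With a replicate block it was kept (limma, adjusted p = 0.0111). In the authors' deposited table the log2 fold of Ddc was −0.14, −0.34 and −0.86 at 12, 24 and 96 h, with an FDR of 0.116, 5.60e-14 and 1.10e-80.

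In Neo and Pax7 cells Ddc had 2.49 and 2.56 against 2.45 and 2.32 FPKM. The Pax7 values lay just below the Neo values, and the difference of −0.15 was not called (95% interval −0.27 to −0.03; limma, adjusted p = 0.0594). Whether it differs from the fall in the ER-Pax7 cells was not tested, since the tables were normalized separately and one counts introns. The opposite-strand gene 1700042O10Rik shares 17199 bases with the Ddc gene body, and counting without strand means that reads of the 2 genes cannot be told apart there. It stood at 7.963 ± 1.07 scaled exon reads at 0 h (SD, n = 3), far below Ddc, but at 3.075 ± 0.0212 FPKM over its body in Neo cells and 2.925 ± 0.00707 in Pax7 cells (SD, n = 2 each), a level like that of Ddc.

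Gch1, the first enzyme of tetrahydrobiopterin synthesis, fell at 24 and 96 h and was lower in Pax7 than in Neo cells. Gch1 (NM_008102, mm10 chromosome 14, 47153895 to 47189402) had 571.69, 558.51 and 572.63 scaled exon reads at 0 h, 567.69, 511.00 and 498.41 at 12 h, 437.74, 476.35 and 507.57 at 24 h, and 413.85, 393.82 and 393.45 at 96 h. The 12 h group overlapped the 0 h group, and the 24 and 96 h groups lay wholly below it. The means were 567.6 ± 7.89, 525.7 ± 36.9, 473.9 ± 35.0 and 400.4 ± 11.7 (SD, n = 3 each), and the 96 h mean was 70.5% of that at 0 h. The log2 differences at 12, 24 and 96 h were −0.11, −0.28 and −0.51 (SE 0.05 each; limma, adjusted p = 0.266, 8.33e-04 and 2.10e-07). From 24 to 96 h Gch1 fell by 0.23 (limma, adjusted p = 0.0056).

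In Neo cells Gch1 had 1.73 and 1.64 FPKM and in Pax7 cells 1.19 and 1.28, with no overlap and a Pax7 mean at 73.3% of the Neo mean. The log2 difference was −0.49 (SE 0.06; limma, adjusted p = 0.0105). Without Neo replicate 1 or Neo replicate 2 it was −0.48 or −0.51 and no longer called (limma, adjusted p = 0.058 and 0.0564).

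Th, tyrosine hydroxylase, the rate-limiting enzyme of catecholamine synthesis, moved in the other direction from a very low level. Th (NM_009377, mm10 chromosome 7, 142892776 to 142899966) had 0.17 and 0.12 FPKM in Pax7 cells against 0.01 in both libraries of Neo cells. The ratio of means was 14.5, and because the Neo values are close to the rounding step of the file, ratios from 9.33 to 30.0 are possible. On log2(FPKM + 0.1) the difference was 1.12 (SE 0.12; limma, adjusted p = 0.00776). Th passed the filter only through the Pax7 group and so had to differ if it was tested, and this test is no independent support. With no filter on low values the log2 difference was also 1.12 (limma, adjusted p = 0.0145).

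In the ER-Pax7 cells Th had 4.94, 4.89 and 4.72 scaled exon reads at 0 h, 5.04, 4.75 and 5.57 at 12 h, 6.24, 6.11 and 4.93 at 24 h, and 7.50, 8.06 and 6.08 at 96 h. The 96 h libraries all lay above the 0 h libraries, while the 12 and 24 h groups overlapped them. These values rest on 42 to 58 reads per library at 0 h and 68 to 76 at 96 h. The mean rose from 4.85 ± 0.115 at 0 h to 7.213 ± 1.02 at 96 h (SD, n = 3 each), a log2 difference of 0.48 (SE 0.16; limma, adjusted p = 0.0238). The call was lost without 0 h replicate 2, 0 h replicate 3, 96 h replicate 1 or 96 h replicate 2 (limma, adjusted p = 0.0513, 0.0613, 0.0703 and 0.104), and the authors' deposited table gives Th a log2 fold of 0.55 with an FDR of 0.971. At 12 and 24 h the differences were 0.06 and 0.19 (limma, adjusted p = 0.912 and 0.493).

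**Figure D2:**
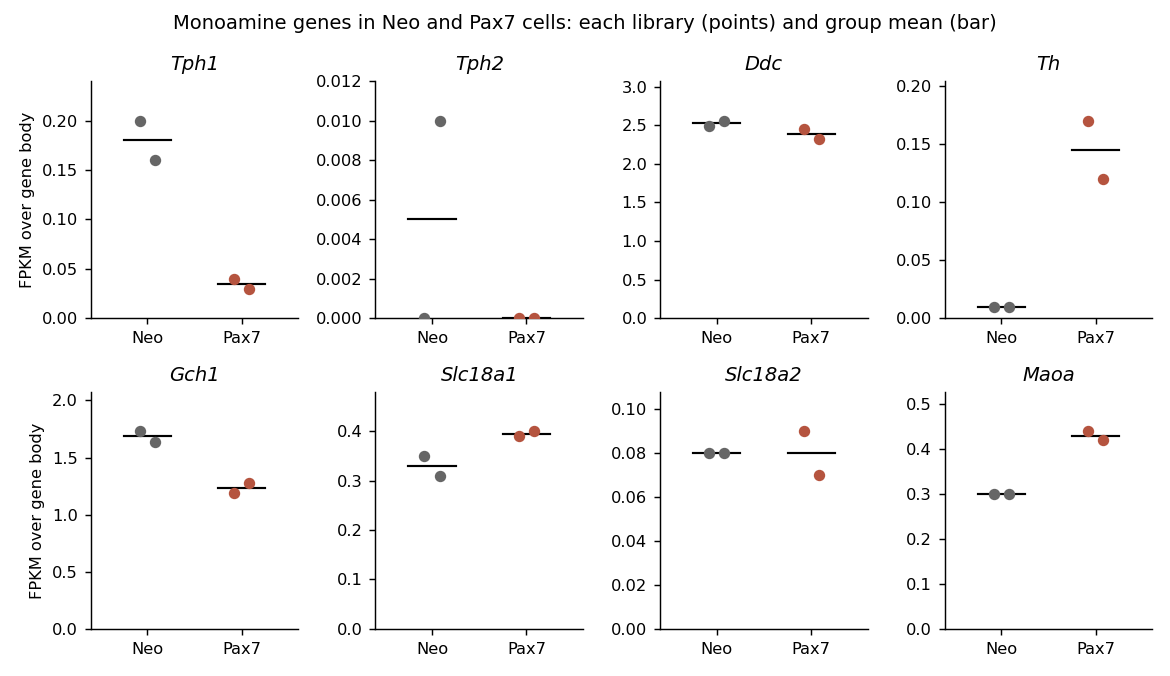
Deposited FPKM over the gene body (vertical axes, each from 0) of 8 genes in the Neo and Pax7 libraries, with 1 point per library and a bar at the mean of 2. Maob was listed at 0 in all 4 libraries and is not drawn. Tph1 and Gch1 are lower and Th and Maoa higher in the Pax7 libraries, with no overlap.

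The vesicular transporters showed no called difference in any comparison. Slc18a1, the transporter of endocrine granules (NM_153054, mm10 chromosome 8, 69037708 to 69089222), had 79.81, 82.32 and 89.87 scaled exon reads at 0 h, 79.45, 87.23 and 83.16 at 12 h, 87.76, 81.59 and 85.54 at 24 h, and 67.84, 73.42 and 83.79 at 96 h. The groups overlapped, although 2 of the 96 h libraries were the lowest of the 12. The log2 difference at 96 h was −0.17 (95% interval −0.33 to −0.01; limma, adjusted p = 0.104), and without 96 h replicate 3 it was −0.25 and called (limma, adjusted p = 0.023). Differences at 12 and 24 h were −0.01 and 0.00 (limma, adjusted p = 0.968 and 0.992).

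In Neo cells Slc18a1 had 0.35 and 0.31 FPKM and in Pax7 cells 0.39 and 0.40, and the difference of 0.14 was not called (95% interval −0.03 to 0.32; limma, adjusted p = 0.155). The gene shares 487 bases with Atp6v1b2, a proton pump subunit gene on the opposite strand, which had 2205 ± 95.6 scaled exon reads at 0 h and 2511 ± 63.6 at 96 h (SD, n = 3 each), and 10.7 ± 0.813 FPKM in Neo and 13.05 ± 0.276 in Pax7 cells (SD, n = 2 each). Reads of the 2 genes in the shared bases cannot be told apart.

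Slc18a2, the other vesicular monoamine transporter (NM_172523, mm10 chromosome 19, 59260878 to 59296012), had 35.50, 41.33 and 47.50 scaled exon reads at 0 h, 36.74, 39.69 and 42.72 at 12 h, 41.39, 44.28 and 41.25 at 24 h, and 42.42, 39.57 and 40.78 at 96 h. All 9 later libraries lay between the lowest and the highest 0 h library. The log2 differences from 0 h were −0.05, 0.02 and −0.01 (limma, adjusted p = 0.867, 0.916 and 0.934), and the 95% interval at 96 h was −0.22 to 0.19. Its values of 0.08, 0.08, 0.09 and 0.07 FPKM in the 2 Neo and 2 Pax7 libraries were under the filter and were not tested.

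Maoa, the oxidase that prefers serotonin and noradrenaline (NM_173740, mm10 chromosome X, 16619698 to 16687812), was higher in Pax7 cells. It had 0.30 FPKM in both Neo libraries against 0.44 and 0.42 in the Pax7 libraries, with no overlap. The log2 difference was 0.35 (SE 0.05; limma, adjusted p = 0.014). It was not called when any 1 of the 4 libraries was left out (values of 0.33 to 0.36; limma, adjusted p between 0.0639 and 0.0731).

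In the ER-Pax7 cells Maoa had 181.12, 181.28 and 182.99 scaled exon reads at 0 h, 199.66, 171.16 and 184.39 at 12 h, 197.02, 178.51 and 201.31 at 24 h, and 202.62, 201.36 and 197.26 at 96 h. The 96 h libraries lay above the 0 h libraries, and the groups in between overlapped both. The mean was 181.8 ± 1.04 at 0 h and 200.4 ± 2.8 at 96 h (SD, n = 3 each), and the difference of 0.13 was not called (95% interval 0.02 to 0.25; limma, adjusted p = 0.0725). Maob (NM_172778, mm10 chromosome X, 16709281 to 16817366) had 0 reads in 7 of the 12 ER-Pax7 libraries and at most 4 reads in any, and was listed at 0 in all 4 Neo and Pax7 libraries. A count of 0 allows up to 3 reads, or 0.244 to 0.353 scaled exon reads depending on the library, for counting error only.

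The members called were few and went both ways. In Pax7 against Neo cells, 6 members passed the filter, of which 2 (Th and Maoa) were called higher and 2 (Tph1 and Gch1) lower, where 18.1% of the 13393 genes tested were called higher and 18.5% lower. Tph1 and Th passed only through the group in which they were high, so this count supports nothing. In the authors' deposited comparison of Neo and Pax7 cells, the log2 fold was 0.00 for Tph1, Th, Slc18a1 and Maoa. It was −0.56 for Ddc and −0.92 for Gch1, and none of the 6 had an FDR under 0.05 there. The deposited FPKM of Tph1, Th and Maoa did not overlap between Neo and Pax7 cells. Their folds of 0.00 therefore do not show that nothing changed. Over all genes, 2424 were higher and 2482 lower, but 2600 and 1241 when library totals replaced TMM factors, a scaling that changed the direction or call of none of the 6 members tested. Among the 7 members tested in the time course, 0 were called higher and 1 lower at 12 h, where 2.92% of 15188 genes were called higher and 3.61% lower. At 24 h, 0 were higher and 2 lower, with 5.66% and 7.92% of all genes. At 96 h, 1 was higher and 2 lower, with 16.5% and 17.3% of all genes. Of the 7, limma at an unadjusted p under 0.05 gave 0 higher and 2 lower at 12 h, 0 and 2 at 24 h, and 2 and 3 at 96 h, and edgeR on the recovered reads called 0 and 1, 0 and 2, and 1 and 2. From 24 to 96 h, Ddc and Gch1 were the 2 members called lower and 0 were called higher, by limma and by edgeR alike, where 6.03% of genes were called higher and 6.62% lower. The limma count at an unadjusted p under 0.05 was 0 higher and 3 lower, with Slc18a1 added (limma, unadjusted p = 0.0409). The shares of all genes given here are at an adjusted p, and none was taken at an unadjusted p. The unadjusted counts at any time therefore have no background to be read against. The median log2 difference of the 7 members at 12, 24 and 96 h was −0.01, 0.00 and −0.13, against 0.00 over all genes at each time.

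**Figure D3:**
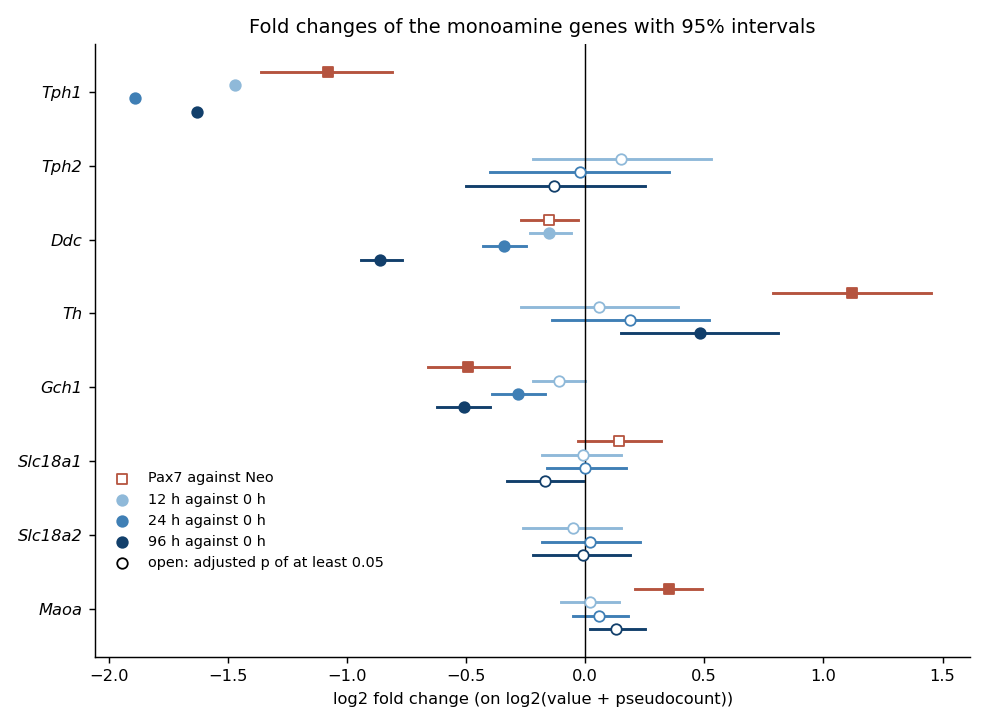
Log2 differences (horizontal axis, on log2(value + pseudocount)) of 8 genes in 4 comparisons, with 95% intervals from limma; filled points have an adjusted p under 0.05 and open points do not. Tph1 in the time course is drawn filled and without an interval because it is a description with no test, and Tph2 and Slc18a2 were not tested in Pax7 against Neo. Ddc moves from −0.15 to −0.86 between 12 and 96 h, whereas the intervals of Slc18a2 include 0 at every time.

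Per kilobase of exon, the members spanned several orders of magnitude, and the order changed around Tph1. At 0 h, Ddc had 272 ± 12.4 reads per kilobase per M recovered reads (SD, n = 3), Gch1 28.6 ± 0.397, Maoa 6.08 ± 0.0347 and Slc18a1 3.76 ± 0.234. Slc18a2 at 1.52 ± 0.22 and Tph1 at 1.31 ± 0.057 followed and overlapped each other, and Th at 0.386 ± 0.00918, Tph2 at 0.255 ± 0.0459 and Maob at 0.00309 ± 0.00535 came last without overlap. At 12 h, Tph1 at 0.451 ± 0.0441 and Th at 0.407 ± 0.0331 overlapped. At 24 h, Th at 0.458 ± 0.0574 stood above Tph1 at 0.334 ± 0.05, and at 96 h Th at 0.574 ± 0.0812 stood above Tph1 at 0.401 ± 0.0334, with no overlap at either time. The places of the other members did not change with time, and their neighbours did not overlap at 12, 24 or 96 h. Ddc at 96 h was still at 151 ± 7.79 reads per kilobase per M recovered reads.

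The 8 genes with the time course most like that of Tph1 were ranked by the root mean square difference of the log2 differences at 12, 24 and 96 h, over 12516 genes and 12 libraries. The nearest was Uox, which encodes urate oxidase, with −1.21, −1.57 and −1.74 and a root mean square difference of 0.25. Dhrs3, a retinaldehyde reductase gene, followed at 0.46, and Mgll, the monoglyceride lipase gene, at 0.48. Spon2, Fabp2, Rd3, Sec16b and Kcnh1 lay between 0.51 and 0.55. At 12 and 24 h the differences of Tph1 were larger than those of each of the 8. In Pax7 against Neo cells, 5 of the 8 passed the filter, with log2 differences of −1.04 for Dhrs3, −0.91 for Mgll, 0.04 for Spon2, −0.17 for Fabp2 and −1.38 for Rd3. These genes were chosen by their likeness, so it is a description with no test.

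**Figure D4:**
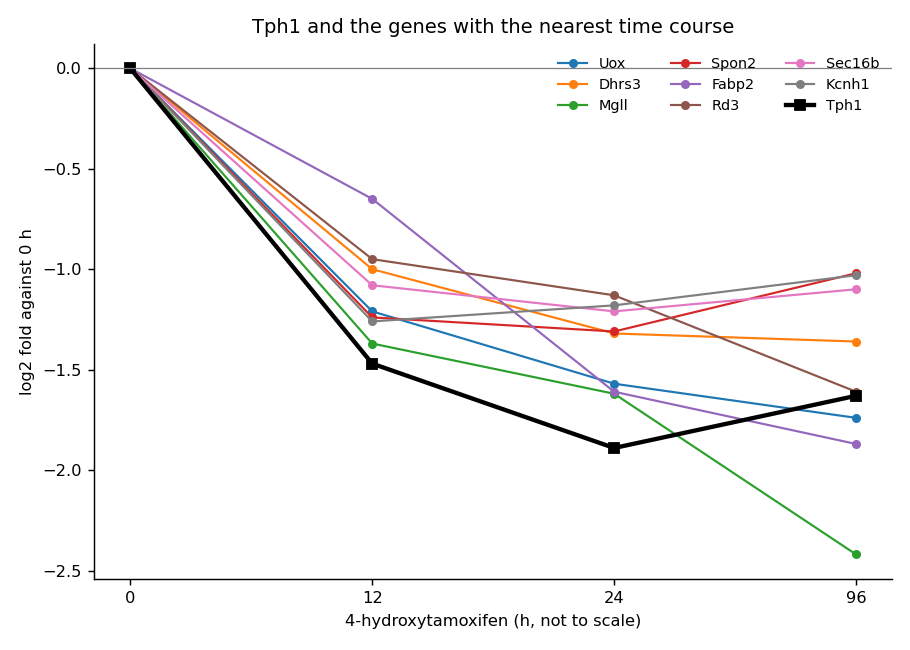
Log2 differences from 0 h (vertical axis) of Tph1 (black squares) and the 8 genes nearest to it, by hours of 4-hydroxytamoxifen, with the times evenly spaced and not to scale. Each point is a difference between means of 3 libraries, and Uox, at −1.21, −1.57 and −1.74, runs closest to Tph1.

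The other genes of the pathways were read from 9 lists with 79 genes in the tables, of which 42 passed the filter in the time course and 29 in Pax7 against Neo. Of the 42, 2 were called higher and 5 lower at 12 h, 4 and 12 at 24 h, 9 and 16 at 96 h, and 5 and 3 from 24 to 96 h. Over all genes tested, the shares higher and lower were 2.92% and 3.61%, 5.66% and 7.92%, 16.5% and 17.3%, and 6.03% and 6.62% in the same order, and the counts of the lists at 96 h below stand against 16.5% and 17.3%. Of the 29, 7 were called higher and 7 lower in Pax7 cells, against 18.1% and 18.5% of all genes. Genes named below to account for a small count, beyond those the naming rule gives, were chosen after their values were seen. The list for transport and use of aromatic amino acids, the precursors of monoamines, had 10 of 15 genes tested at 96 h. In it, 1 was called higher and 6 lower, with a median of −0.18. The 6 were the transport genes Slc7a5, Slc3a2, Slc7a8, Slc16a10 and Slc43a2 (log2 −0.27, −0.16, −0.35, −0.31 and −0.17) and Hpd. Slc7a8 and Slc43a2 each kept the call in 3 of 6 fits with 1 library left out. In Pax7 cells, 7 of the list were tested, with 1 called higher (Slc7a5, log2 0.21; limma, adjusted p = 0.0131) and 3 lower. The Slc7a5 call was lost without Neo replicate 2, Pax7 replicate 1 or Pax7 replicate 2. That of Slc16a10, among the 3 lower, was lost whichever library was left out. Hpd, a tyrosine-degrading dioxygenase, had the largest fall of that list, from 111.6 ± 1.48 scaled exon reads at 0 h to 57.11 ± 2.26 at 96 h (SD, n = 3 each; log2 −0.96, limma, adjusted p = 1.78e-09). It was also lower in Pax7 cells, at 0.2 ± 0.0141 against 1.14 ± 0.0141 FPKM (SD, n = 2 each; log2 −2.11, limma, adjusted p = 0.00109). Tat, the tyrosine aminotransferase of the same route, was lower in Pax7 cells (log2 −0.73; limma, adjusted p = 0.0021) but higher at 96 h (log2 0.24; limma, adjusted p = 9.00e-05).

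The tetrahydrobiopterin genes beside Gch1, all 7 of which were tested, went both ways at 96 h, with 3 higher, 2 lower (Pts and Qdpr, log2 −0.24 and −0.16) and a median of −0.14. Pcbd1, which recycles the cofactor, rose in Pax7 cells (log2 0.48; limma, adjusted p = 0.00312). Of the 5 genes of later steps, 2 were tested in the time course and 1 in Pax7 against Neo. Hdc, which makes histamine, was lower at 96 h (log2 −0.30; limma, adjusted p = 0.0363) and in Pax7 cells (log2 −0.41; limma, adjusted p = 0.0231). Leaving out any 1 of the 4 libraries ended its Pax7 call, and leaving out 5 of the 6 in turn, all but 0 h replicate 2, ended its 96 h call (limma, largest adjusted p 0.105 and 0.12). Dbh, which turns dopamine into noradrenaline, was listed at 0 in all 16 libraries.

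Among the other breakdown enzymes, 1 was called higher and 3 lower of 6 tested at 96 h, with a median of −0.14. The 3 lower were Akr1a1 (−0.17), Akr1b3 and Rnls (−0.41). Akr1b3, an aldose reductase that acts on aldehydes formed from monoamines, was lower in Pax7 cells (log2 −0.66; limma, adjusted p = 0.00656) and at 96 h (log2 −0.40; limma, adjusted p = 3.83e-06). The transporter of noradrenaline, Slc6a2, rose from 9.47 ± 1.39 to 20.33 ± 3.26 scaled exon reads at 96 h (SD, n = 3 each; log2 1.02, limma, adjusted p = 3.92e-05). At 24 h its difference of 0.60 was called (limma, adjusted p = 0.0128), but not without 0 h replicate 1 or 24 h replicate 2 (limma, largest adjusted p 0.0911). In Neo and Pax7 cells Slc6a2 had means of 0.02 and 0.025 FPKM, which overlapped, were under the filter and were not tested. Slc6a2 was the 1 uptake transporter called of 4 tested at 96 h, where the list's median was 0.22, and the serotonin transporter Slc6a4 was listed at 0 in all 16 libraries. Slc22a2, a polyspecific cation transporter, was higher at 96 h than at 24 h (log2 0.52; limma, adjusted p = 0.0297), a call lost without 24 h replicate 1 or 3 or 96 h replicate 1 or 3 (limma, largest adjusted p 0.138).

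**Figure D5:**
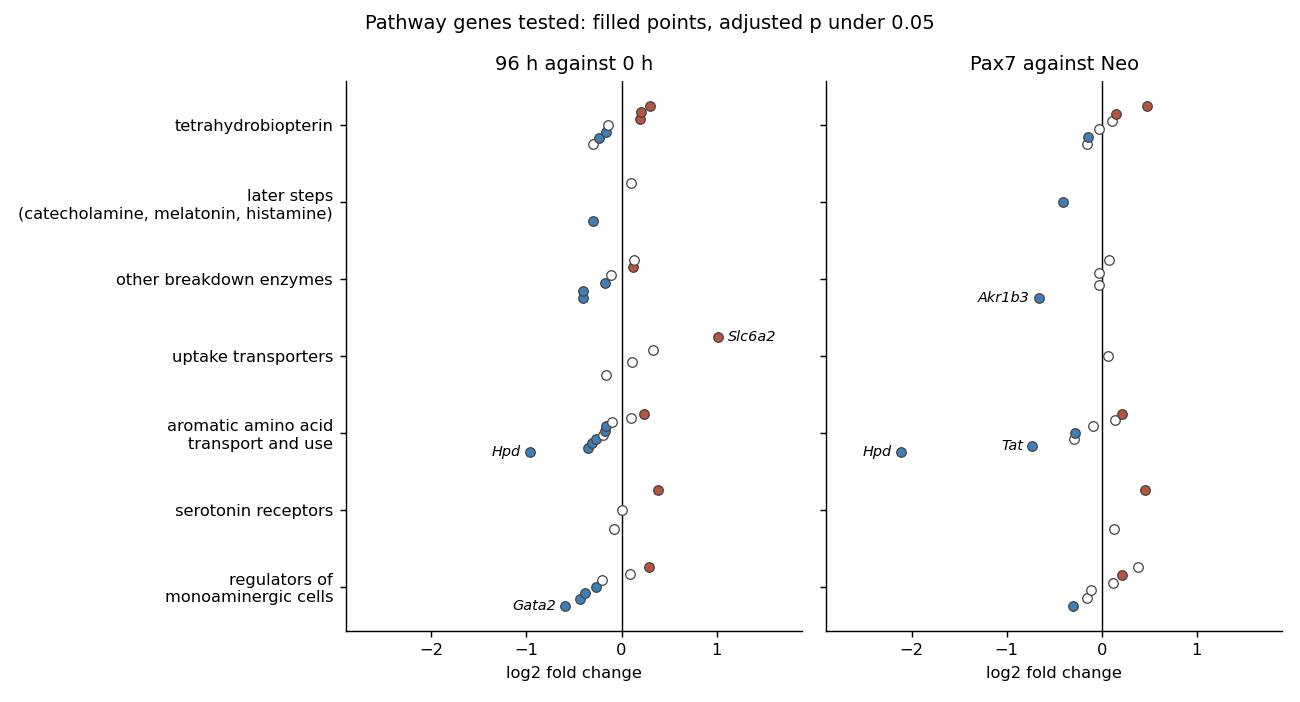
Log2 differences (horizontal axes) of the tested genes of 7 pathway lists at 96 h against 0 h and in Pax7 against Neo, with 1 point per gene; filled points have an adjusted p under 0.05 in limma, red higher and blue lower. Dopamine receptors, none of which was tested, and adrenergic receptors are not drawn. Hpd stands lowest in both panels, at −0.96 and −2.11, and Slc6a2 highest at 96 h, at 1.02.

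Of the receptors, those for dopamine had 0 of 5 genes past the filter in either table, so limma and edgeR tested none. Of 14 serotonin receptor genes, 3 were tested in the time course. Htr3a, the subunit of a serotonin-gated ion channel, was higher at 96 h (213.8 against 163.5 scaled exon reads; log2 0.38, limma, adjusted p = 4.53e-06) and in Pax7 cells (log2 0.45, limma, adjusted p = 0.00646). The Pax7 call was lost without Pax7 replicate 2 (limma, adjusted p = 0.0516). Adra2a, an adrenergic receptor, had 0.24 ± 0.0283 FPKM in Pax7 and 0.04 ± 0.0283 in Neo cells (SD, n = 2 each; log2 1.25, limma, adjusted p = 0.0127), passed the filter only through the Pax7 group, and was not called without Pax7 replicate 1 or 2 (limma, largest adjusted p 0.0729).

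Among 7 tested transcription factors of monoamine-producing cells, 1 was called higher and 4 lower at 96 h, with a median of −0.27. The 4 lower were Nr4a2, Gata2, Lmx1b (−0.38) and Lmx1a (−0.27), of which Lmx1a was not called without 0 h replicate 1 or 96 h replicate 1 or 2. Nr4a2, which directs dopamine neuron genes including Th, fell from 351.0 ± 13.4 scaled exon reads before the compound to 238.1 ± 11.5, 232.0 ± 13.6 and 258.7 ± 9.03 after 12, 24 and 96 h of it (SD, n = 3 each; log2 −0.56, −0.61 and −0.44, limma, adjusted p = 2.83e-07, 4.26e-08 and 1.18e-06). In Pax7 against Neo cells Nr4a2 was not called (log2 −0.11; limma, adjusted p = 0.178). Gata2 fell at 96 h (log2 −0.59; limma, adjusted p = 5.54e-06). Fev, a factor of serotonergic neurons, was at 121.5 scaled exon reads at 0 h and 105.7 at 96 h and was not called (limma, adjusted p = 0.0534).

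The cells carried corticotrope markers throughout, with Pomc at a mean of 75100 to 92700 scaled exon reads in the ER-Pax7 groups and the 6 corticotrope markers all above 0. The sum of 3 melanotrope markers was 179.5 to 192.5 at 0 h and 603.2 to 666.2 at 96 h, of which Pcsk2 had a mean of 186 and 517. In Neo cells the sum was 0.07 to 0.08 FPKM and in Pax7 cells 2.12 to 2.17, with Pcsk2 at a mean of 0.07 and 1.31. Drd2, the dopamine receptor among the 3, was at 0 in every library outside the 12 h group, so the rest of these sums was Oacyl. The 3 mast cell markers Cpa3, Tpsb2 and Ms4a2 were at 0 in every library, while the sum of the 6 mast cell markers went from 81.45 to 90.7 at 0 h to 178.4 to 194.9 at 96 h, carried by Kit, at a mean of 56.8 and 161. The sum of 5 enterochromaffin markers, carried by Sct and including Slc18a1, went from 331.0 to 347.2 at 0 h to 229.0 to 257.2 at 96 h, and from 26.87 to 26.91 FPKM in Neo to 16.39 to 16.94 in Pax7 cells, with Tac1 at 0 in all. The sum of 4 serotonergic neuron markers, which include Tph2, was 171.4 to 181.0 at 0 h and 139.7 to 158.8 at 96 h, but 5.41 to 6.46 FPKM in Neo and 6.54 to 6.96 in Pax7 cells, with Slc6a4 at 0. The part of these shifts in the results on Tph1, Ddc and Gch1 was not tested. Chromaffin markers other than Th were at or near 0, with Dbh at 0 in all libraries.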

How the data were processed

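Ribosome-depleted total RNA was sequenced as paired ends, per the labels' protocols. The submitters' processing notes name mm10 (GRCm38) as the build and TopHat, HOMER and edgeR as tools, with no versions. The ER-Pax7 table came from HOMER counts of exon reads per gene with no strand setting, scaled so that all libraries have a common total, per the file headers and the values, and these deposited values are treated as signal. The Neo and Pax7 table holds FPKM over whole gene bodies, deposited by the authors with 2 decimals. The authors' deposited log2 folds, p-values and FDR come from HOMER running edgeR, per the file headers, and were used only for comparison.

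Low signal values were whole multiples of 1 read (100.0% within 0.1 reads), which gave back the reads. Intervals and floors made from reads cover counting error only. Genes were tested if they reached 1 scaled exon read in 3 libraries (15188 genes) or 0.1 FPKM in 2 (13393 genes). TMM factors (edgeR 4.0.16, all genes) scaled the values, and log2(value + 1) or log2(FPKM + 0.1) was tested 2-sided with limma 3.58.1 (trend, under R 4.3.3). One model held the 12 ER-Pax7 libraries, with Benjamini-Hochberg adjustment over all genes tested, threshold 0.05. Means and SD are of deposited values. Tests set Pax7 against Neo, each later time against 0 h, and 96 h against 24 h. Alternatives were library totals, other pseudocounts, no filter, no trend, a replicate block, edgeR's quasi-likelihood test on recovered reads, and leaving out each library. For 12 h against 0 h, the deviations of same-numbered libraries from their group means correlated at 0.25, 0.195 and 0.134, all over 0.1, so the numbers were taken to pair these libraries from the data alone. The values given at 12 h come from the model without that pairing, except where a replicate block is named. In no other comparison were all pairs over 0.1. The procedure was tested on simulated data.

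The members, lists and tests were chosen with earlier results of these data known. Pathway genes are named if called at an absolute log2 difference of at least 0.5 in a comparison or if they are the called gene with the largest difference of their list. Some pathway genes, 1 of which met this rule, are not reported here. The 8 genes like Tph1 were taken from genes with a mean of at least 10 scaled exon reads.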

Additional observations from a re-analysis of the deposited data

How the results depend on the processing

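Over 424 recalculations of the members' tested log2 differences, 391 kept their direction and side of the threshold, 16 lost a call, 2 gained one and 15 changed sign. Most of the 424 are of differences not called in the main fit, which keep their side by staying uncalled. They also include Tph1 and Th in Pax7 against Neo, whose tests are no independent support. The total is therefore no measure of how well the calls hold. The falls of Ddc and Gch1 at 24 and 96 h and from 24 to 96 h kept their call in all alternatives run. With a pseudocount of 4, Tph1, which has no test in the time course, stood at −1.31, −1.65 and −1.44 at 12, 24 and 96 h. The sign changes concern differences near 0, none of them called. With 1 library left out, Slc18a1 ranged from −0.05 to 0.03 at 12 h (0.03 and 0.02 without 0 h replicate 3 and 12 h replicate 1), Slc18a2 from −0.16 to 0.04 (0.04 without 0 h replicate 3) and Maoa from −0.04 to 0.07 (−0.04 without 12 h replicate 1). At 24 h, Tph2 ranged from −0.14 to 0.07 (0.07 and 0.00 without 0 h replicate 2 and 3), Slc18a1 from −0.04 to 0.05 (−0.04 and −0.01 without 0 h replicate 1 and 2, −0.02 and −0.01 without 24 h replicate 1 and 3; −0.00 by edgeR on recovered reads) and Slc18a2 from −0.08 to 0.12 (−0.08 and −0.01 without 0 h replicate 1 and 24 h replicate 2). At 96 h, Slc18a2 ranged from −0.12 to 0.09 (0.09 and 0.01 without 0 h replicate 3 and 96 h replicate 2). Genes called in Pax7 against Neo numbered 1390 to 2277 with 1 library left out, against 4906, since fewer samples remain. From 24 to 96 h the genes called numbered 1259 to 1732 with 1 library left out, the lowest without 96 h replicate 2, against 1921.

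With a replicate block, 3305 genes were called in Pax7 against Neo and 1246, 2538, 5755 and 2515 in the time course comparisons, and Maoa at 96 h gained a call (0.13, limma, adjusted p = 0.0444). Outside 12 h against 0 h, where the numbers paired the libraries, same-numbered libraries deviated together in part only (correlations of −0.16 to 0.327 over all 18 pairs of the time course, 9 of them over 0.1, and 0.0362 for Neo and Pax7). Of the 12 libraries, 10 correlated best with their own number, a hint from the data that the labels do not explain. No other member's call changed under the block. On the recovered reads, edgeR called 992, 2041 and 5129 genes at 12, 24 and 96 h and 1949 from 24 to 96 h, against 992, 2063, 5129 and 1921 with limma. Depth limits Tph2, Th and Maob in the time course, and rounding to 2 decimals limits Tph1, Tph2, Th and Slc18a2 in Pax7 against Neo.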
